A study of Mus musculus with 310 samples.

Results

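The keratin genes Krt1, Krt10 and Krt2 were taken by name from a table of 14068 genes, and all 3 were found in it. They are the keratins of the suprabasal epidermis, and their reads were followed in 310 single cells, by plate, by replicate and by group. The cells came from tail skin of mice of mixed CBA C57BL/6 background that carry Lrig1-EGFP-ires-CreERT2, in which Cre follows the Lrig1 gene, together with the reporter Rosa26-fl/STOP/fl-tdTomato. Every group received hydroxytamoxifen on the tail before the wounding step, so that cells expressing Lrig1, a stem cell gene of the upper hair follicle, and all their later progeny carry tdTomato. Epidermal cells positive for tdTomato were sorted and profiled by Smart-seq2, which reads full-length transcripts of one cell per well without molecular identifiers. The cells therefore include only descendants of Lrig1-expressing cells and not the rest of the epidermis. The label 38w covers 145 cells, of RepI (70 cells on plates C114 and C118) and RepL (75 cells on plate C119). The label 38wUW covers 165 cells, of RepM (82 cells on plate C128) and RepN (83 cells on plate C129). Per the labels the time is 38 weeks in both groups, but they give no age of the mice and do not spell out UW, so differences are given only as 38w against 38wUW. The study asked how long an earlier wound leaves its mark on aged epidermis. Its methods used female mice for its single-cell work, and nothing in the labels says how many mice make up a replicate, so p-values over replicates measure only the spread between these 4 units.

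Keratins work as obligate pairs of a type I and a type II chain. Basal keratinocytes make the Krt14 and Krt5 pair, and cells that leave the basal layer switch to Krt10 (type I) with Krt1 (type II). Krt2 is a second type II partner of Krt10, which comes on later and higher in the suprabasal layers, and in the mouse it is known from ear, sole and tail skin. In the tail the interfollicular epidermis is a pattern of scales, with Krt36 and Krt84, and interscales, which hold Krt10 and Krt2. Krt10 is also made in differentiated cells of the infundibulum, the upper hair follicle.

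In GENCODE M21 (GRCm38, the build of the deposited data) all 3 genes are protein coding and lie on the minus strand. Krt1 (ENSMUSG00000046834.7) spans chromosome 15 from 101845426 to 101850794, with 9 exons in its only coding transcript. Krt2 (ENSMUSG00000064201.8) spans chromosome 15 from 101810689 to 101818169, also with 9 exons, and 27256 bases with no annotated gene separate it from Krt1. Krt10 (ENSMUSG00000019761.10) lies apart, on chromosome 11 from 99385254 to 99389364, with 8 exons in its longest coding transcript. At the full length of a read, 75 bases, none of the windows of Krt1 and Krt2 occurs in a transcript of another gene. Of the 2020 such windows of Krt10, 20 occur in Gm11940 and in no other gene. Shorter windows of 31 bases are shared more. For Krt1 1 of 2425 occurs in Krt5 and Krt6a, and for Krt2 13 of 2583 occur in Krt4. For Krt10 94 of 2064 occur in Krt14, Krt17, Krt42 or Gm11940.

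Because Krt10 and Krt2 were often found in the same cells, but in different shares of the cells of each group, the 250 bases before their start sites are shown (RefSeq promoter table, GRCm38.p6, minus strand, 5′ to 3′, chr11:99389365-99389614 for Krt10 and chr15:101818170-101818419 for Krt2). The table held 2 of the 3 genes. Capitals mark the TATA box letters TATATAA.

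Krt10: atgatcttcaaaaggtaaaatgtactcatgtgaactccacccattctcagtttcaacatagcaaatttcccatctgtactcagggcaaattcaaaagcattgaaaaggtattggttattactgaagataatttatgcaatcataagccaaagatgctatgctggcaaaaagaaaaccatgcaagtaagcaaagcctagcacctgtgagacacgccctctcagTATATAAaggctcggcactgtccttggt
Krt2: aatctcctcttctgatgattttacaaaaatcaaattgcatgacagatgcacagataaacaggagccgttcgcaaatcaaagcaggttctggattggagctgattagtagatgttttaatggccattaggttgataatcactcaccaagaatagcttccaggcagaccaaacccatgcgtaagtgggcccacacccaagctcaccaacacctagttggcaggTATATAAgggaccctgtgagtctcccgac

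Both sequences hold TATATAA on the coding strand, 28 bases before the start in Krt10 and 29 bases before it in Krt2. It was chosen after the sequences were seen, and 3.04% of the 32851 promoters in the table hold it in the same window on either strand. The shorter TATAAA, which overlaps it, is found in Krt10 only, and in 12.4% of all promoters. The KLF letters CCACACCC are found once in Krt2, 63 bases before the start, not in Krt10, and in 3.2% of all promoters. The AP-1 letters TGANTCA (6.75% of all promoters), the GRHL letters AACCNGTT (1.79%) and a pair of CATG with 5 bases between (0.432%) are in neither. Both strands were searched. The E-box letters CANNTG occur 3 times in Krt10 and once in Krt2, with 66.2% of all promoters holding them, and the C/EBP letters TTNCNNAA occur 2 times in Krt10 and once in Krt2, against 36.8% of all promoters.

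Depth per cell ran from 11711 to 721564 reads with a median of 61294, and the sums per replicate ran from 5472070 (RepM) to 12946742 (RepN) reads. Plates differed in quality. Median mitochondrial share was 2.77% on C114 and 33.8% on C118, the 2 plates of RepI, and 9.69% to 18.3% on the other 3 plates. The median share of ribosomal protein genes was 31.8% on C114 against 3.62% to 6.81% elsewhere, so C114 stands apart and results of RepI are also given by plate. Defining markers of immune cells, Cd207, Cd74, Cd3e and Tyrobp, were not among the genes of the table, and the 3 of 12 immune markers present summed to 1.31 to 2.93 CPM (counts scaled to the same total in every library) per replicate. Of 10 melanocyte or Merkel cell markers 6 were present, at a sum of 10.9 to 27.6 CPM in 38w and 23.0 to 26.4 CPM in 38wUW. Of 10 fibroblast or endothelial markers 8 were present, at a sum of 1327 to 8794 CPM in 38w and 2650 to 7692 CPM in 38wUW, nearly all of it Pecam1, while Col3a1 and Cdh5 were not in the table.

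Krt10 was the most abundant of the 3 in each replicate, and Krt1 was low throughout. Levels of different genes are compared as RPKM, the CPM of the summed reads divided by the length of the longest coding transcript in kilobases. In this unit Krt10 stood at 2258 (RepI) and 1059 (RepL) in 38w, and at 2139 (RepM) and 1147 (RepN) in 38wUW. Krt2 stood at 1637 and 407 RPKM in 38w and at 203 and 22.4 RPKM in 38wUW. Krt1 stood at 96.0 and 41.8 RPKM in 38w and at 90.1 and 122 RPKM in 38wUW. In these sums Krt2 thus came second in RepI, RepL and RepM. In RepN it was below Krt1, of whose reads there 1 cell held 58.7%. Per length, Krt10 was 1.38 and 2.6 times Krt2 in the 2 replicates of 38w, and 10.5 and 51.2 times Krt2 in those of 38wUW.

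All 3 keratins were carried by few cells, so sums over cells rest on a handful of wells. The 1 cell with most Krt2 reads held 46.5% (RepI) and 24.5% (RepL) of them in 38w, and 55.4% (RepM) and 66.2% (RepN) in 38wUW. For Krt10 the top cell held 17.2% (RepL) to 55.7% (RepM) of the reads, and for Krt1 34.6% (RepM) to 59.7% (RepL). The 5 top cells together held 55.6% to 99.5% of a keratin's reads in a replicate. Among cells with a read of Krt10, the median level was 435 (RepI) and 2201 (RepL) CPM in 38w and 1173 (RepM) and 419 (RepN) CPM in 38wUW, and the highest single cell, on plate C128, reached 83987 CPM. The highest single cell for Krt2 stood at 80813 CPM on C114 and for Krt1 at 10272 CPM on C128.

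**Figure D1:**
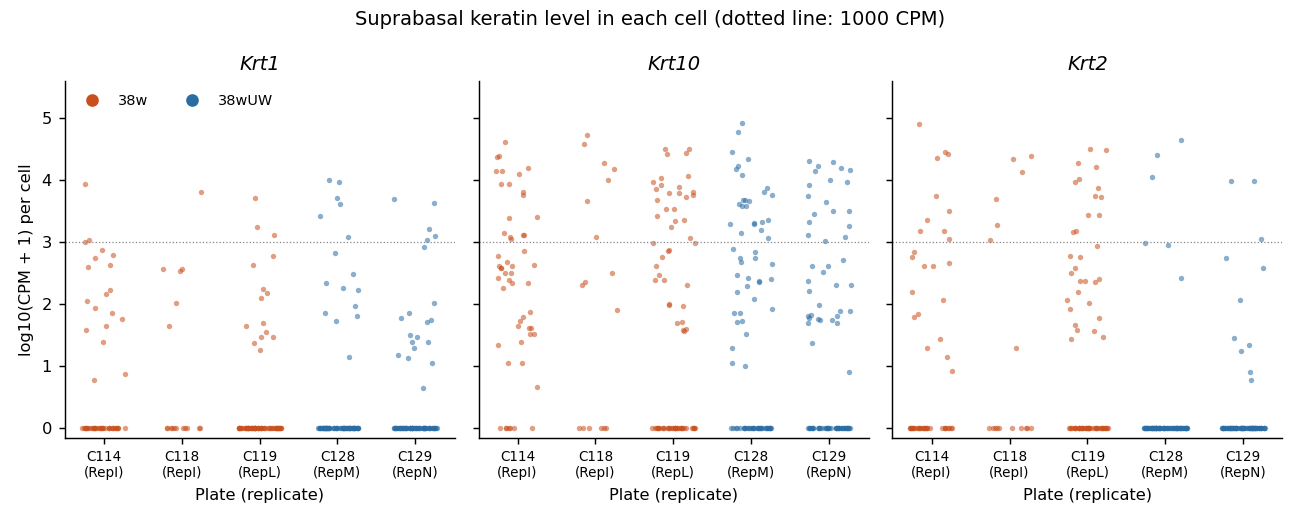
Level of Krt1, Krt10 and Krt2 in each of the 310 cells as log10(CPM + 1), by plate with the replicate in brackets, orange for 38w and blue for 38wUW; the dotted line is 1000 CPM. Most cells sit at 0 for Krt1, Krt10 is spread over the whole range on all 5 plates, and the Krt2 panel is well filled on the 3 plates of 38w and nearly empty above 0 on C128 and C129.

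The sharpest difference between the groups was in how many cells held Krt2. To compare cells at equal depth, each was thinned to 20000 reads and the 33 shallower cells were left out. After thinning, a read of Krt2 was found in 25 of 68 cells of RepI (36.8%, 95% Wilson interval 26.3 to 48.6) and 27 of 70 cells of RepL (38.6%, 28.01 to 50.3). It was found in 4 of 64 cells of RepM (6.25%, 2.46 to 14.97) and 5 of 75 cells of RepN (6.67%, 2.88 to 14.7). Intervals cover only the counting error over cells, and not the spread between plates or replicates. The 2 groups did not overlap, at 37.7% ± 1.28 (SD, n = 2) against 6.46% ± 0.295 (SD, n = 2), and the difference of 31.2 percentage points gave p = 0.333 in an exact two-sided permutation test, the smallest p that 2 against 2 replicates allow. Both 38w replicates exceeded both 38wUW replicates in this share for 9.78% of 13940 genes and lay below them for 30.3%, and 0.38% of genes did so by at least 20 points, a margin set after the value of Krt2 was seen. By size of the difference Krt2 ranked 4 of these genes.

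The Krt2 share was alike on the plates of one group. It was 35.3% on C114, 41.2% on C118 and 38.6% on C119, against 6.25% on C128 and 6.67% on C129. All 3 plates of 38w thus lie above both plates of 38wUW, including the pair C114 and C118 that differ most in mitochondrial and ribosomal share. Without thinning, a Krt2 read was found in 42.9% (RepI) and 42.7% (RepL) of 38w cells and in 7.32% (RepM) and 13.3% (RepN) of 38wUW cells. Cells with at least 1000 CPM of Krt2 made up 22.9% and 17.3% of the 38w replicates and 3.66% and 3.61% of the 38wUW replicates, and 3.82% of 3141 genes had both 38w replicates higher by this measure.

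Krt10 was broader and its share of cells overlapped between the groups. After thinning, 51 of 68 cells of RepI (75.0%), 37 of 70 of RepL (52.9%), 38 of 64 of RepM (59.4%) and 33 of 75 of RepN (44.0%) had a Krt10 read. Means were 63.9% ± 15.7 and 51.7% ± 10.9 (SD, n = 2 each), and RepM lay above RepL (exact permutation p = 0.667). Cells with at least 1000 CPM of Krt10 made up 35.7% (RepI) and 30.7% (RepL) of 38w and 29.3% (RepM) and 22.9% (RepN) of 38wUW, which do not overlap but differ by 7.11 points between the group means (exact permutation p = 0.333).

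Krt1 was found in fewer cells than Krt10 on every plate, and its share of cells with a read overlapped between the groups. After thinning it was 32.4% (22 of 68) in RepI and 20% (14 of 70) in RepL, against 20.3% (13 of 64) in RepM and 20% (15 of 75) in RepN. Of the 4 replicates, 3 thus lay side by side and RepI above them (exact permutation p = 1). Cells with at least 1000 CPM of Krt1 were rare, at 5.71% (4 of 70) in RepI and 4% (3 of 75) in RepL against 7.32% (6 of 82) in RepM and 6.02% (5 of 83) in RepN. That is lower in both 38w replicates (exact permutation p = 0.333), as it was for 14.5% of 3141 genes. At 100 CPM the order turned, with a mean of 16.8% ± 8.62 in 38w against 10.9% ± 3.52 in 38wUW (SD, n = 2 each).

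**Figure D2:**
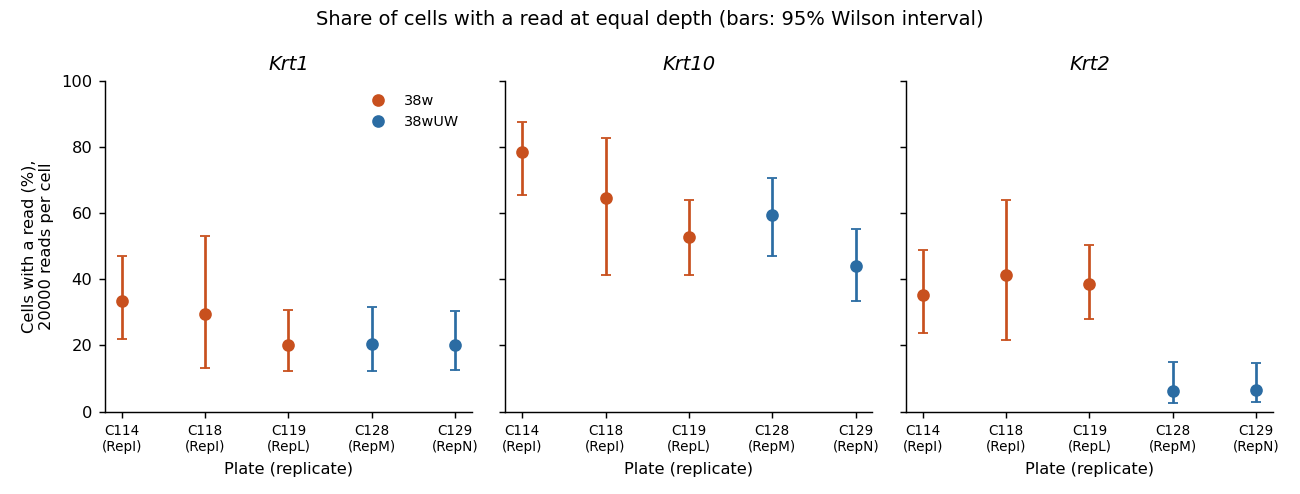
Percentage of cells with at least 1 read of Krt1, Krt10 or Krt2 after thinning each cell to 20000 reads, by plate with the replicate in brackets; points are the shares and bars the 95% Wilson interval, orange for 38w and blue for 38wUW. Krt2 stands between 35.3% and 41.2% on the 3 plates of 38w and at 6.25% and 6.67% on the plates of 38wUW, while Krt1 and Krt10 overlap between the groups.

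Some reads of a keratin appear also in cells that should hold little of it. Cells were clustered without the keratin genes of the 2 keratin lists, and 2 clusters named from bulge markers (44 and 36 cells, median 132296 and 51093 reads per cell, with 6 and 8 of 10 bulge markers raised, but none among the 10 leading genes of the first) and 1 with sebocyte markers (35 cells, median 37055 reads) served for this comparison. Krt2 had a read in 2.27%, 5.56% and 5.71% of these cells, Krt1 in 15.9%, 0% and 8.57%, and Krt10 in 43.2%, 22.2% and 34.3%. The 0 of 36 cells for Krt1 allows a share of up to 8.33%. Like these, the Krt2 shares without thinning were 7.32% (95% Wilson interval 3.40 to 15.1) in RepM and 13.3% (7.56 to 22.2) in RepN, above the values of the 3 clusters, and 42.9% and 42.7% in the 38w replicates, far above them. The 3 clusters held 0 cells of C114, 5, 1 and 1 of C118, and 3, 8 and 7 of C119. Most of their cells were of 38wUW, so stray reads on the plates of 38w, above all C114, cannot be judged from them. At the level of 1000 CPM none of the cells of these 3 clusters held Krt2, 1 held Krt1 and 4 held Krt10, whereas 6 cells of 38wUW and 29 of 38w held Krt2 at that level.

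In sums over all cells Krt2 was higher in 38w and Krt1 and Krt10 were not separated. Krt2 stood at 4278 (RepI) and 1063 (RepL) CPM in 38w and at 531 (RepM) and 58.5 (RepN) CPM in 38wUW, so the groups do not overlap. Both 38w replicates were higher for 12.6% of the 11760 genes tested and lower for 26.2%. In the same order of replicates Krt10 stood at 4729, 2218, 4479 and 2401 CPM, and Krt1 at 236, 103, 221 and 299 CPM. Both 38wUW values of Krt10 lie inside the range of 38w, and those of Krt1 inside it or above it. In such sums, fewer cells of a type and less RNA per cell cannot be told apart.

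With edgeR's quasi-likelihood test on these sums the log2 fold change of Krt2 (38w against 38wUW) was 3.43 (SE 1.34), with an adjusted p of 0.617 (Benjamini-Hochberg) and an unadjusted p of 0.0217. For Krt10 it was 0.26 (SE 1.18, adjusted p = 0.959) and for Krt1 -0.36 (SE 0.87, adjusted p = 0.92, edgeR). No gene of the table passed an adjusted p of 0.05 in edgeR (0% called), 949 genes (8.07%) had an unadjusted p under 0.05 (4.29% with a higher level in 38w, Krt2 among them), and DESeq2 called 70 of 12703 genes (0.551%), with none of the 3 keratins among them. DESeq2 gave Krt2 a log2 fold change of 3.49 with an adjusted p of 0.0994. Leaving out one replicate leaves a group with 1 sample, which is then assumed to vary like the other group. Without RepM the Krt2 change was 5.80 (edgeR adjusted p = 0.999), without RepN 2.57 (1), without RepI 2.08 (0.103) and without RepL 4.19 (3.61e-07, with 1215 genes called). It was positive in each case, and the fit without RepL, whose spread comes from 38wUW alone, was the only one of the 4 in which Krt2 passed.

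The labels hold 2 versions of a batch tag, and Krt2 was higher in 38w within each batch of both. By the first tag, plates C118 and C119 together stood at 1920 CPM of Krt2 against 58.5 on C129, and C114 at 4163 against 531 on C128. By the second, C118 and C119 stand against C128 and C114 against C129. The log2 ratios of Krt2 CPM within batches were 5.04 and 2.97 by the first tag and 1.85 and 6.15 by the second. For Krt10 they were 0.53, -0.13, -0.37 and 0.77, and for Krt1 -0.99, -0.01, -0.55 and -0.45, in the same order. No single batch holds enough replicates for a test. With plates as units and the tag as a block, edgeR gave Krt2 a log2 fold change of 4.78 (SE 1.48, unadjusted p = 0.00471, adjusted p = 0.949) by the first tag and 4.10 (unadjusted p = 0.00764, adjusted p = 1) by the second. In these fits C114 and C118, both of RepI, count as separate units, so the p-values rest on units that are not all independent.

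Ratios between keratins do not depend on the total of a library. The log2 ratio of Krt2 to Krt10 reads was -0.14 (RepI) and -1.06 (RepL) in 38w and -3.08 (RepM) and -5.36 (RepN) in 38wUW. The groups do not overlap and differ by 3.61 (exact permutation p = 0.333, the smallest possible). The log2 ratio of Krt2 to Krt1 had the same order of replicates, at 4.18, 3.37, 1.26 and -2.35, a difference of 4.32 (exact permutation p = 0.333). Within type II, Krt2 reads thus outnumbered Krt1 reads in 3 replicates and were outnumbered in RepN. The order in RepN depends on the weighting, since its mean over cells was 260 CPM for Krt2 and 176 CPM for Krt1. With each cell given equal weight the groups differed by 2.77 in Krt2 to Krt1 and by 1.83 in Krt2 to Krt10.

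In summed reads the pair Krt1 and Krt10, the partners of the early suprabasal filament, had similar ratios on most plates. It was -4.22 on C114, -4.62 on C118, -4.43 on C119 and -4.34 on C128, and only C129 stood apart at -3.00 (log2 of Krt1 to Krt10 reads). Replicate means differed by -0.71 between the groups (exact permutation p = 0.667), by -0.04 without RepN and by -1.38 without RepM. With each cell given equal weight the difference was -0.95 (exact permutation p = 0.333). Without the cell with most reads of each keratin in each replicate it was -1.54 (exact permutation p = 0.333). The top cell of a plate held 34.6% (C128) to 81.5% (C118) of its Krt1 reads, so these ratios rest on few cells.

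Set against the basal pair Krt5 and Krt14, the suprabasal pair was lower in both 38w replicates, but not on each plate. The log2 ratio of Krt1 plus Krt10 to Krt5 plus Krt14 was -2.12 (RepI) and -1.27 (RepL) in 38w and 1.07 (RepM) and 1.13 (RepN) in 38wUW (exact permutation p = 0.333). By plate it was -2.59 on C114 and 2.14 on C118, the 2 plates of RepI, so C118 lay above both plates of 38wUW. With RepI from C118 only, the difference between groups shrank from -2.80 to -0.67 (exact permutation p = 1). Krt14 stood at 19615 and 4626 CPM in 38w against 1808 and 825 CPM in 38wUW, but on C118 it stood at 1204 CPM, inside the range of 38wUW.

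**Figure D3:**
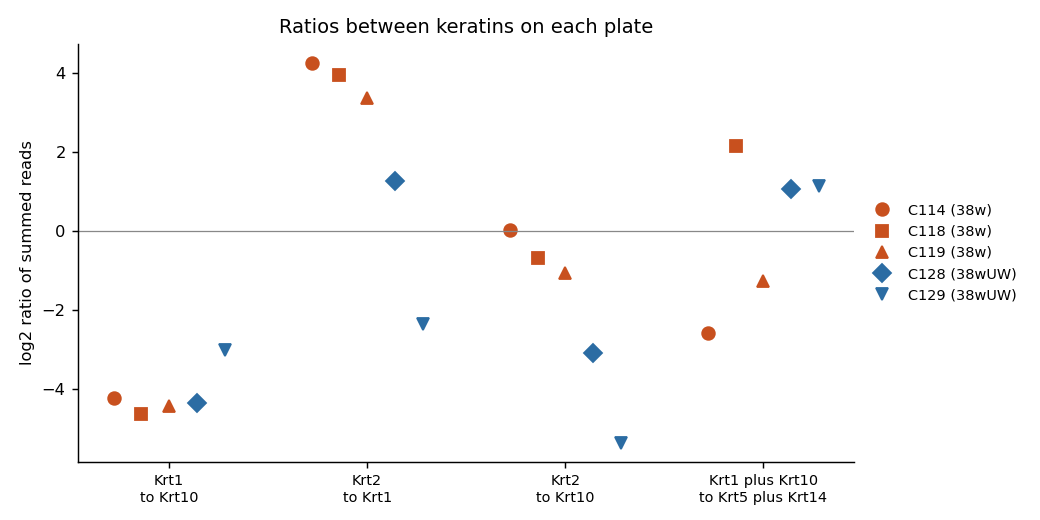
log2 ratio of the reads of one keratin (or pair) to another, summed over the cells of each plate; symbols mark the plates, orange for 38w and blue for 38wUW. In Krt2 to Krt1 and Krt2 to Krt10 the 3 plates of 38w lie above both plates of 38wUW, Krt1 to Krt10 is near -4.4 on 4 plates, and in the ratio to the basal pair C118 at 2.14 is separated from the other 2 plates of 38w.

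Within single cells Krt1 and Krt2 were found mostly, but not only, together with Krt10. Of the 277 cells at equal depth, 98 had none, 88 had Krt10 alone, 21 had Krt1 and Krt10, 16 had Krt10 and Krt2, 34 had all 3, 9 had Krt1 alone, 11 had Krt2 alone, and none had Krt1 and Krt2 without Krt10, which allows a share of up to 1.08%. Of the 64 cells with Krt1, 85.9% held Krt10, and of the 61 cells with Krt2, 82.0% held it, where 159 of all 277 cells did. In the other direction 34.6% of the 159 Krt10 cells held Krt1 and 31.4% held Krt2. Of the Krt2 cells 55.7% held Krt1. The overlap was weaker on C119, where 66.7% of the 27 Krt2 cells held Krt10, against 52.9% of all its cells.

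Pooled over replicates, cells with none of the 3 made up 26.1% of 38w and 44.6% of 38wUW, and cells with all 3 made up 18.1% and 6.47%. By replicate, cells with none made up 19.1% (RepI), 32.9% (RepL), 35.9% (RepM) and 52% (RepN), so RepL and RepM lay close. Cells with all 3 made up 23.5%, 12.9%, 6.25% and 6.67% in the same order. Cells with Krt10 and Krt2 but no Krt1 numbered 16 of 138 in 38w and 0 of 139 in 38wUW, where a count of 0 allows up to 2.16%. Cells with Krt2 alone numbered 11 in 38w, of which 9 were on plate C119, and 0 in 38wUW. All 9 cells with Krt2 in 38wUW also held Krt1 and Krt10, whereas 25 of the 52 Krt2 cells of 38w held all 3. Without thinning the zeros were lost: of 17 Krt2 cells of 38wUW 12 held all 3, 2 held Krt10 and Krt2 and 3 held Krt2 alone, against 30, 22 and 10 of 62 in 38w. In cells with a Krt10 read, Krt2 was found in 42.5% on C114, 54.5% on C118 and 48.6% on C119, against 10.5% on C128 and 15.2% on C129. Krt1 was found in 37.5%, 45.5%, 35.1%, 26.3% and 36.4% of the Krt10 cells in the same order of plates. The Krt2 values do not overlap between the groups, and those of Krt1 do.

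The same held in cells with a high level of Krt10. Of cells with at least 1000 CPM of Krt10, a thinned read of Krt2 was found in 12 of 17 on C114, 6 of 7 on C118 and 12 of 22 on C119, against 4 of 20 on C128 and 3 of 18 on C129. Krt1 was found in 10 of 17, 5 of 7, 9 of 22, 8 of 20 and 8 of 18. Pooled over plates, Krt2 was in 65.2% of high-Krt10 cells of 38w and 18.4% of those of 38wUW, and Krt1 in 52.2% and 42.1%.

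The high-Krt10 cells of the 2 groups also differed in other keratins. Krt79, a keratin of the infundibulum and sebaceous duct, had a read in 27 of 43 high-Krt10 cells of 38wUW and in 14 of 48 of 38w. Krt77, a type II keratin of suprabasal cells, had one in 17 of 43 and 4 of 48. Mt4, a metallothionein of differentiating squamous epithelium, had one in 15 of 43 and 40 of 48. In cells with at least 1000 CPM of Krt2 the pattern was alike in both groups: Mt4 had a read in 29 of 29 cells of 38w and 6 of 6 of 38wUW, Krt79 in 3 of 29 and 0 of 6, and Krt77 in none of either. These 3 genes were singled out after values were seen, and cells of one plate are not replicates, so no test was made. Median depth of the high-Krt10 cells was 60947 reads in 38w and 58480 in 38wUW.

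**Figure D4:**
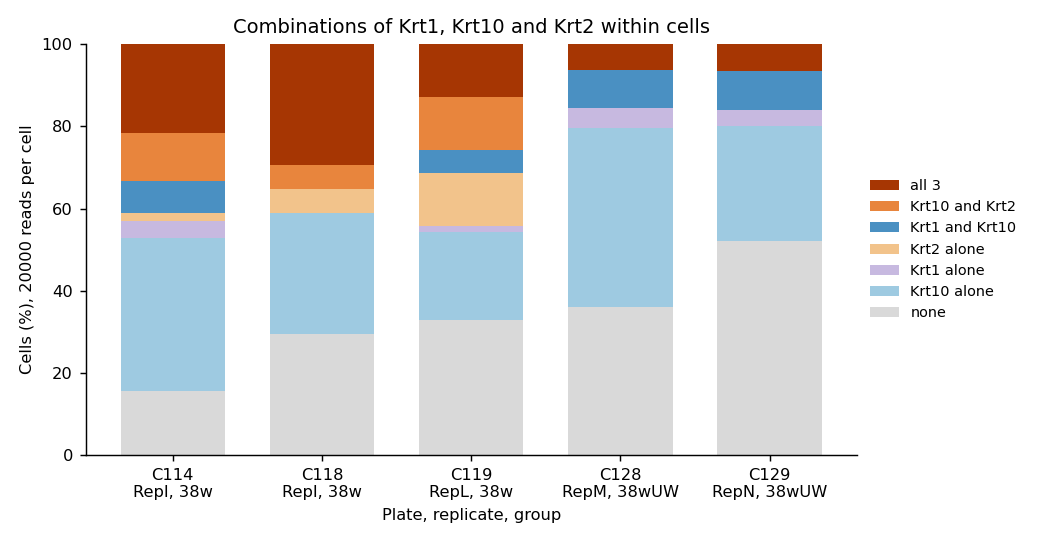
Percentage of cells, at 20000 reads per cell, with each combination of Krt1, Krt10 and Krt2, stacked to 100% for each plate. Orange and brown parts, which hold Krt2, take 35.3% to 41.2% of the cells on the plates of 38w and 6.25% and 6.67% on those of 38wUW, and there the whole Krt2 part is the class with all 3 keratins.

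Clustering on other genes placed the keratins in a few groups of cells. The 8 clusters are a description of these cells and their sizes follow plates, with 46 of the 47 cells of cluster 1 from C114 and 27 of the 34 cells of cluster 6 from C119. Cluster 3 (39 cells, led by Ttll7, Krt2, Gm10800, Krt1 and Gm10801) had the highest mean of all 3, at 13188 CPM of Krt10, 8151 of Krt2 and 1093 of Krt1. It was left unnamed because scale markers scored highest in it while its 10 leading genes held none of them and held Krt1 and Krt2. It held 66.6% of all Krt2 reads, 32.9% of Krt10 reads and 23.5% of Krt1 reads. The cluster of highest mean depends on the settings: at a Leiden resolution of 0.6 Krt1 and Krt10 were highest in a cluster of 66 cells with infundibular and duct markers, and at 1.5 all 3 were highest in a cluster of 11 cells with interfollicular differentiated markers.

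Cluster 0 had infundibular and duct markers (61 cells, led by Sprr1a, Slc46a2, Gdpd1, Klk7 and Teddm3) and held Krt10 almost without Krt2. Krt10 had a read in 52 of its 61 cells, and in 37 of them at 1000 CPM or more, with a mean of 4686 CPM. Krt2 had a read in 5 of 61 and a mean of 23.6 CPM, and cluster 0 held 45.5% of all Krt10 reads but 0.198% of all Krt2 reads. Krt1 had a read in 16 of 61 and a mean of 304 CPM, with 45.1% of all Krt1 reads. Of these cells 49 were from 38wUW and 12 from 38w.

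The share of Krt2 cells within clusters was not tested between the groups. In cluster 3 it was 20 of 29 cells of 38w (69.0%, 95% Wilson interval 50.8 to 82.7) and 6 of 10 of 38wUW (60.0%, 31.3 to 83.2). In cluster 6 (34 cells, led by Cox17, Arap3, Adam22, Olfr1124 and Glis3, unnamed) it was 16 of 28 and 3 of 6. In cluster 1 (led by S100a4, Gm8797, Mt4, Rpl36 and Rps18-ps6, unnamed) it was 20 of 46 cells of 38w, with 1 cell of 38wUW. In cluster 0 it was 2 of 12 cells of 38w (16.7%, 4.70 to 44.8) and 3 of 49 of 38wUW (6.12%, 2.10 to 16.5). The intervals are wide and a difference of the size seen over all cells cannot be judged in any of these clusters. Clusters 1, 3 and 6 together held 103 of the 145 cells of 38w and 17 of the 165 of 38wUW. Krt1 in cluster 3 went the other way, with a read in 12 of 29 cells of 38w and 9 of 10 of 38wUW.

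In the remaining clusters Krt10 and Krt2 had a read in a minority of the cells. The bulge-like clusters 2 (led by Commd10, Irx2, Ptpre, Topors and Tpp2) and 4 (led by Sema3e, Ccn2, Aspn, Vwa2 and Serpinb11) and the sebocyte-like cluster 5 (led by Scd1, Olfr1033, Mgst1, Ermp1 and Tgfbr3) each held under 1% of Krt10 reads. Cluster 2 held 7.51% of Krt1 reads through 7 cells. Cluster 7 (14 cells, with the dividing-cell genes Sgo2a, Ncapg, Cenpf and Ccnb1 among its leading genes) had Krt10 in 3 cells and Krt2 in 4.

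**Figure D5:**
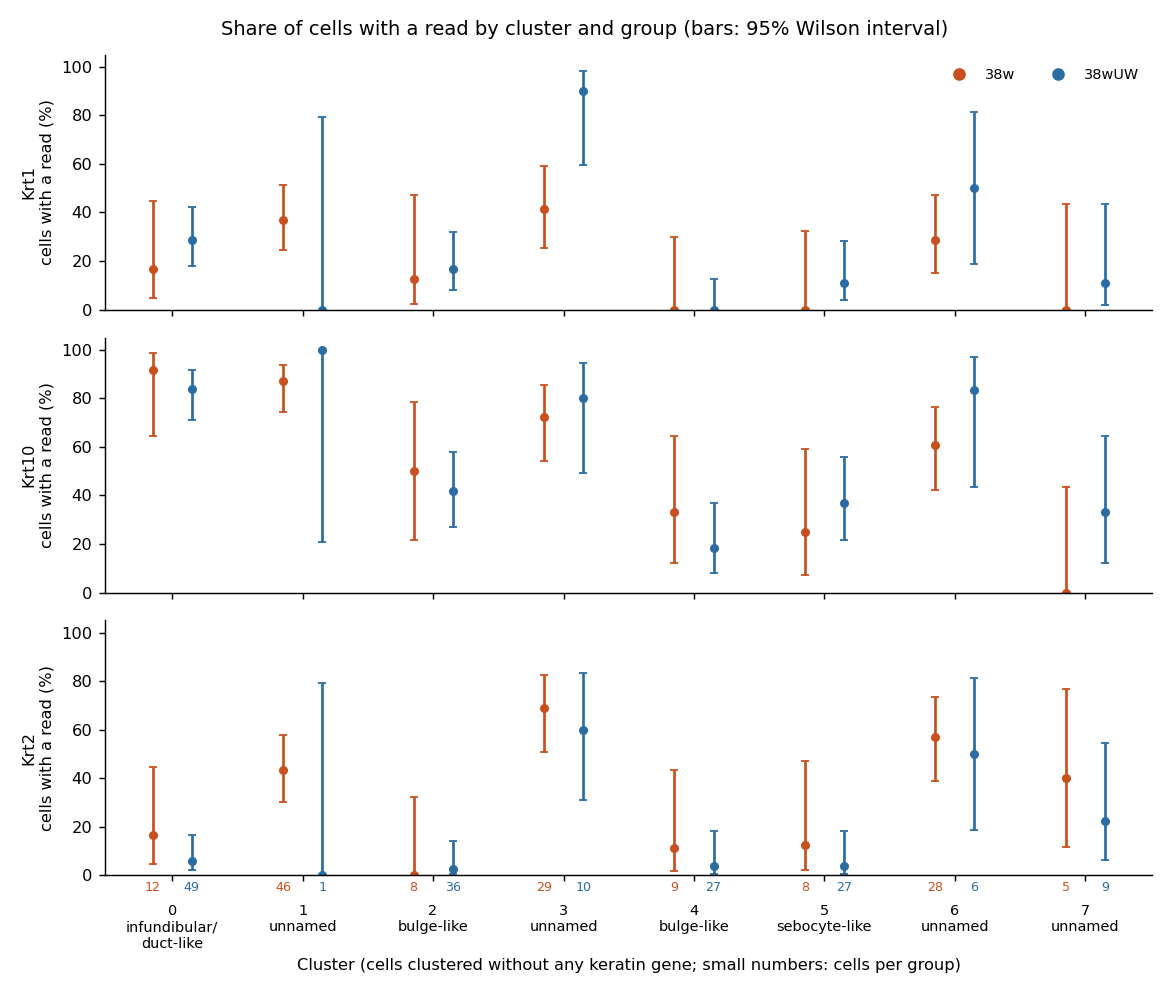
Percentage of cells with a read of Krt1, Krt10 or Krt2 in each of the 8 clusters, orange for 38w and blue for 38wUW, with the 95% Wilson interval and the number of cells of each group under the lowest panel. Krt10 is above 60% in clusters 0, 1, 3 and 6 in both groups, though 38wUW has only 1 cell in cluster 1. Krt2 is above 40% in clusters 3 and 6 of both groups and in cluster 1 of 38w. In cluster 0 Krt2 is at 16.7% in 38w and 6.12% in 38wUW.

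The genes whose pattern across cells was most like that of each keratin are named next. Likeness is Pearson's r of log2(CPM + 1) after centring within each plate, over 310 cells and 9245 genes. All points share libraries and depth, so r is a description. For Krt10 the top 5 were Dsg1a (0.60) and Dsc1 (0.57), desmosomal cadherins of suprabasal cells, Elovl4 (0.58), a fatty acid elongase of the skin barrier, Calm4 (0.57), a calmodulin-like protein of epidermis, and Krtdap (0.53), a keratinocyte differentiation protein.

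For Krt2 they were Mt4 (0.68), Mettl7a3 (0.57), Krt10 (0.47), Ndufa4l2 (0.46) and Cstdc5 (0.46). For Krt1 they were Calm5 (0.49), Mt4 (0.48), Krt10 (0.45), Calm4 (0.43) and Krt2 (0.40). With Spearman's rank correlation, 1 of the 5 stayed in the top 5 for Krt1, 3 for Krt10 and 2 for Krt2. The order for Krt1, with a read in 76 cells, therefore depends on the measure.

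Between the members r was 0.45 for Krt1 with Krt10, 0.47 for Krt10 with Krt2 and 0.40 for Krt1 with Krt2, and it was positive on all 5 plates for each pair. Krt10 and the basal keratin Krt5 were opposed, at -0.47 over all cells and from -0.62 (C128) to -0.32 (C129) by plate. With Krt14 the r of Krt10 was weaker, at -0.19, and positive on C129 (0.12).

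Of the genes most like Krt2, Mettl7a3, Mt4 and Ndufa4l2 were higher in both 38w replicates, as 12.6% of all genes were. Cstdc5 had a log2 fold change of 0.13 (SE 1.41). Mettl7a3 stood at 391 and 279 CPM in the 38w replicates RepI and RepL, against 16.9 and 3.70 in RepM and RepN (log2 fold change 5.27, SE 1.10, edgeR adjusted p = 0.461). Mt4 stood at 4545 and 369 against 99.2 and 19.1 CPM (5.63, SE 1.53, edgeR adjusted p = 0.611, DESeq2 adjusted p = 0.000982). Of those most like Krt10, Dsg1a stood at 328 and 1010 against 1291 and 1031 CPM, and Dsc1 at 58.3 and 102 against 177 and 225 CPM, both lower in each 38w replicate, as 26.2% of all genes were. None of these genes passed the edgeR test.

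Lists of related genes show the setting. No gene of any list passed an adjusted p of 0.05 in edgeR, so each list is given by its direction, with a median log2 fold change of 0.12 over all 11760 genes. At an unadjusted edgeR p under 0.05 stood 5 early suprabasal, 5 late cornification, 3 type I, 3 type II, 0 interscale, 6 scale and 1 transcription factor genes, and DESeq2 called 2, 1, 2, 1, 0, 3 and 0 genes of these lists, where 8.07% and 0.551% of all genes were so called. In the early suprabasal list 13 of 20 tested genes had a log2 fold change above 0 (median 0.68), with 4 higher in both 38w replicates and 5 lower, beside 12.6% and 26.2% of all genes. Its extremes were Mt4 and Them5 (2.75, SE 1.03), an acyl-CoA thioesterase, at one end and Skint3 (-3.16, SE 0.90), of an epidermal immunoglobulin family, and Krt77 (-3.03, SE 0.98) at the other (edgeR adjusted p from 0.611 to 0.617).

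Of the 27 genes of the late cornification list 19 were tested and 13 had a log2 fold change below 0 (median -0.95). None was higher in both 38w replicates and 6 were lower, beside 12.6% and 26.2% of all genes. Ivl (involucrin, a cornified envelope precursor) stood at 10.5 and 2.24 against 39.5 and 42.9 CPM, and Flg (filaggrin, which bundles keratin filaments) at 7.81 and 3.10 against 53.7 and 16.0 CPM. Klk5, a protease of desquamation, had a log2 fold change of 1.06 (SE 1.09) and Sprr1a, an envelope precursor, 0.999 (SE 1.37).

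Among type I keratins 11 of 27 were tested and 8 had a log2 fold change above 0 (median 0.72), and among type II 6 of 11 tested did (median 0.27). At the ends of these lists were Krt36 and Krt24 (3.82, SE 1.02), higher in 38w, and Krt16 (-0.39, SE 1.02) for type I, and Krt84 and Krt2 against Krt77 and Krt80 (-0.99, SE 0.90) for type II. The scale keratins Krt84 and Krt36, like Krt2, were higher in both 38w replicates, as 12.6% of all genes were. Krt84 had 16630 and 4049 reads in RepI and RepL, against 4 and 0 in RepM and RepN (edgeR adjusted p = 0.0879, DESeq2 adjusted p = 4.05e-20), and Krt36 had 67668 and 10455 against 33 and 0.

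The interscale genes of the study with the members left out are the list closest to Krt2 and Krt10 in tail skin. Of these 6 genes 5 had a log2 fold change above 0 (median 1.58). In both 38w replicates 1 was higher, beside 12.6% of all genes. None had an unadjusted p under 0.05, beside 8.07% of all genes. The highest were Ly6g6c (1.82, SE 1.12) and Hspb1 (1.76, SE 1.03), a small heat shock protein, and the lowest Stfa3 (0.15, SE 1.12), a stefin, and Serpinb12 (-0.40, SE 0.98), a protease inhibitor. Of the 8 scale genes 7 were above 0 (median 3.40), 6 of them higher in both 38w replicates, as 12.6% of all genes were. Fgfbp1 stood at 1.60 (SE 0.86) and Id2 was lowest at -0.40 (SE 0.84). Both lists were taken from the study, and whether they were chosen on these samples was not tested, so they are not independent evidence of a direction.

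Of 34 transcription factors of epidermal differentiation 33 were tested, 16 above 0 and 17 below (median -0.01). In both 38w replicates 4 were higher and 14 lower, beside 12.6% and 26.2% of all genes. Maf (1.19, SE 0.85) and Tfap2c (1.39, SE 0.96) were highest, and Prdm1 (-1.61, SE 1.19) and Zfp750 (-1.41, SE 0.87) lowest (edgeR adjusted p from 0.684 to 0.724).

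Sums of markers of some other epidermal compartments also did not overlap between the replicates of the groups, as 38.8% of all single genes did not. The 10 interfollicular basal markers, all in the table, summed to 7382 to 23192 CPM in 38w and 2461 to 3127 in 38wUW. Most of the 38w sums was Krt14 alone, at 19615 (RepI) and 4626 (RepL) CPM. The 5 scale markers summed to 2916 to 9330 against 133 to 141 CPM, and most of the 38w sums was Krt36 (6958 and 1802 CPM). The 9 granular or cornified markers in the table, of 12, were lower in 38w, at 14.1 to 160 against 237 to 249 CPM, and so were the 10 of 12 sebocyte markers, at 421 to 706 against 758 to 930 CPM, although on plate C118 the sebocyte sum was 937 CPM. The 12 infundibular and duct markers, at 4498 to 57186 against 9897 to 28986 CPM, and the 12 interfollicular differentiated markers other than the members, at 2713 to 16826 against 3629 to 4545 CPM, overlapped. On plate C118 the basal markers summed to 3074 CPM, inside the range of 38wUW, and the scale markers to 808 CPM. Krt2 was as high there as on C114, at 4811 against 4163 CPM. The part of these compartments in the Krt2 difference was not tested.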

How the data were processed

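Single tdTomato-positive cells were sorted into plates and sequenced by the authors as 75-base single-end Smart-seq2 libraries (25 PCR cycles, no molecular identifiers). The authors deposited estimated counts, one value for each gene in each cell, made with Salmon 0.13.1 on mm10/GRCm38 per the labels, and 3.6% of its values are not whole. No further normalization is in the values. Each cell is one deposited sample, so cells were summed by the replicate named in the labels, and sums were rounded. Depth ran from 5472070 to 12946742 reads per replicate.

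Sums were tested with edgeR 4.0.16 (TMM, filterByExpr, quasi-likelihood F-test, Benjamini-Hochberg over all genes), with DESeq2 1.42.0 as an alternative. TMM factors ran from 0.906 to 1.10. The edgeR step was also run on simulated counts, as a check of the code only. Shares and ratios were tested by exact permutation of the 4 replicates (6 splits). Thinning drew 20000 reads per cell (seed 20). Clusters came from scanpy 1.11.5 (2000 variable genes, 20 components, 15 neighbours, Leiden resolution 1) without listed keratins, mitochondrial, ribosomal protein and sex genes; doublets were not called. Genes outside the members were named by fixed rules: the 5 most alike over cells, the 2 highest and 2 lowest of each list with a mean log2 CPM above or at 4, and the 5 leading genes of a cluster (1 of them is not reported here). Annotation was GENCODE M21, promoters RefSeq (GRCm38.p6). The members, lists and markers were chosen with earlier results of these data known. All 310 cells were kept, 15 of which carry a title suffix (IDTILL or MBULK).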

Additional observations from a re-analysis of the deposited data

How the results depend on the processing

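The Krt2 log2 fold change stayed positive under all 19 alternatives (2.08 to 5.80). Leaving out single replicates gave 2.08 to 5.80, and without RepL, with 1 sample in 38w and the spread taken from 38wUW alone, it passed the threshold at 4.19 (edgeR adjusted p = 3.61e-07), where without RepM or RepN the adjusted p was 0.999 and 1. Krt1 and Krt10 have no stable direction. Krt1 turned from -0.36 to 0.028 with plates as units, 0.027 and 0.091 with either batch tag as a block, and 0.30 after thinning, with -1.11 to 0.20 on leaving out replicates. Krt10 turned from 0.26 to -0.79 in stricter cells (at least 2500 genes and at most 30% mitochondrial reads), with -0.40 to 0.81 on leaving out replicates. The number of genes called, 0 in the edgeR test, was 70 with DESeq2, 1 when genes of low counts stayed in, 1 and 4 with the batch tag and its alternative as a block, and 0 to 1215 on leaving out replicates (169 without RepI, 1215 without RepL). The thinned Krt1 share differed by -0.156 to 12.2 points on leaving out replicates, and at 100 CPM in place of 1000 CPM the Krt1 difference turned from -1.81 to 5.84 points. In the other 8 shares and ratios the direction held under all alternatives.

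The cluster with the highest mean was not the same cells under each setting. In it, the share of cells with a read of Krt1 was 31.8% at Leiden resolution 0.6, 31.3% with 1000 and 34.5% with 4000 variable genes (53.8% as given). That of Krt10 was 86.4% at resolution 0.6, 100% at 1.5 and 85.7% with 4000 variable genes (74.4%), and that of Krt2 45.5% at resolution 1.5 (66.7%). With Spearman's correlation 1, 3 and 2 of the 5 genes most like Krt1, Krt10 and Krt2 kept their place in the top 5. Leaving out the cells with most reads of each keratin in each replicate, an alternative chosen after seeing the data, gave Krt2 a log2 fold change of 3.81. No paired analysis was possible because the groups share no replicate name; the batch tags, which both groups carry, were used as a block (Krt2 4.78 and 4.10). With 2 replicates a group no exact test can fall below 0.333. The causes of these changes were not tested.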
